A study of Mus musculus with 8 samples.

Results

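Axin2, Notum, Nkd1, Nkd2, Lef1, Tcf7, Rnf43, Znrf3, Apcdd1 and Sp5 are the feedback genes and nuclear effectors of Wnt signalling through beta-catenin. They were taken by name from the deposited count tables, which list 23478 genes each, and all 10 were present in both tables and passed the expression filter in both. The RNA came from mouse tracheas at E13.5, an embryonic day when the organ forms its cartilage and muscle. One experiment profiled whole tracheas of Wls flox/flox, ShhCre+ embryos (1 library) against Wls flox/flox controls without Cre (2 libraries). Wls carries Wnt proteins to the cell surface, and Cre under control of Shh acts in the Shh-expressing epithelium, so the Wnt-producing epithelium was the mutated tissue while the RNA came from the whole organ. The other experiment profiled sorted cells of Bmp4flox/flox, γSMAeGFP tracheas that carried a Cre transgene or allele (2 libraries) against Bmp4flox/flox, γSMAeGFP controls without Cre (3 libraries). Both of these groups carried the GFP reporter of smooth muscle gamma-actin, and the sorted cells were negative for GFP and for the epithelial antigen EPCAM. The labels name these cells chondroblasts and do not say whether libraries came from separate embryos, so all p-values measure only the spread between libraries, which may be technical.

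When a Wnt protein binds its Frizzled and LRP receptors, the complex that destroys beta-catenin is switched off, and beta-catenin enters the nucleus and activates genes through TCF and LEF proteins. Many genes activated in this way encode inhibitors of the same pathway, so their transcripts are widely read as a gauge of the signal. In the developing trachea, Wnt ligands made by the epithelium act on the mesenchyme around it, from which cartilage and the trachealis muscle form.

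The members act at different levels of the pathway. Notum is a secreted enzyme that removes the lipid Wnt proteins need for receptor binding, and Apcdd1 is a membrane protein that inhibits Wnt signalling. Rnf43 and Znrf3 are membrane ubiquitin ligases that clear Frizzled receptors from the cell surface. Nkd1 and Nkd2 bind Dishevelled inside the cell, and Axin2 is a scaffold of the beta-catenin destruction complex. Lef1 and Tcf7 are the DNA-binding partners of beta-catenin, and Sp5 is a zinc finger transcription factor whose gene is a known Wnt target.

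RefSeq promoter windows of 250 bases before an annotated start (GRCm38.p6) were at hand for 7 of the 10 members, 12 windows in all, and not for Notum, Znrf3 and Apcdd1. They were searched on both strands for CTTTGAT and CTTTGAA, the core letters of TCF and LEF sites, which differ in the last letter. Of 32851 windows of the same length over all genes, 3.21% held CTTTGAT, 4.46% held CTTTGAA and 7.48% held either. Among the members 1 of 12 windows held a match, close to that share, and it was that of Sp5. It is shown (chr2:70474673-70474922, plus strand, the match in capitals) because Sp5 was the member called higher in the Wls mutant trachea, beside that of Axin2 (chr11:108920099-108920348, plus strand), which was called lower and whose window held no match. The windows of Lef1 and Tcf7, also called lower, and of Nkd1, Nkd2 and Rnf43, not called, held no match either, so 1 match cannot be linked to a direction. A match is only a match of letters, and no binding was measured.
Sp5: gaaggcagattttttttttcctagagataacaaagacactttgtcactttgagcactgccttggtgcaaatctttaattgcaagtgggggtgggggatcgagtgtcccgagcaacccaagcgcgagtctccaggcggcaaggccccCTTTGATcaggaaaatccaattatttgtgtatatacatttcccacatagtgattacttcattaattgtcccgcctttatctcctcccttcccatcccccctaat
Axin2: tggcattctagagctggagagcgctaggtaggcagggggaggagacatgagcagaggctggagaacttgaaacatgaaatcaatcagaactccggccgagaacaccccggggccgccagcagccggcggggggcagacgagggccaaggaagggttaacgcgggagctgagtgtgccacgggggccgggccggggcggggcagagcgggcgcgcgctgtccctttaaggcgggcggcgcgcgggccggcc

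The Wls mutant trachea had 24596836 counts, its controls had 27237573 and 31399982, and there were 12964287 and 15462780 counts in the Bmp4 mutants against 48876948 to 55492747 counts in their controls. Wls itself stood at 65.8 CPM (counts scaled to library size, with TMM factors) in the mutant trachea, against 153 and 146 CPM in controls. Bmp4 stood at 24.1 and 32.2 CPM in the Bmp4 mutant cells, against 124, 99.2 and 121 CPM in controls. Both Bmp4 mutant libraries also held counts in genes silent in the controls. Over 4338 such genes these amounted to 21.3 counts per kilobase of transcript in mutant 1 and 19.7 in mutant 2, and at that even rate to 11.1% and 8.59% of all their counts. Olfactory and vomeronasal receptor genes summed to 2455 and 2203 CPM in the Bmp4 mutants, against 10.9 to 14.8 CPM in their controls, and to 75.5 CPM in the Wls mutant trachea against 61.9 and 80.9 CPM in its controls. Globin genes took 12.3% of the counts in Bmp4 mutant 1 and 0.111% in mutant 2, against 0.000476% to 0.960% in the controls.

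The whole tracheas show which of these genes differed between the Wls mutant library and its controls. Notum, Axin2, Lef1 and Tcf7 fell and Sp5 rose in the Wls mutant trachea. Notum had the largest decrease of the 10, -1.74 ± 0.23 in log2 fold change with its standard error (SE), and Axin2, Lef1 and Tcf7 fell by 0.76 to 0.88 on the log2 scale. The receptor ligases, both Nkd genes and Apcdd1 did not pass the test. In all, 4 of 10 members were lower and 1 of 10 higher by edgeR's quasi-likelihood test (adjusted p under 0.05). Over all 15815 genes tested, 4.27% were called, 2.39% as lower and 1.88% as higher. The median log2 fold change was -0.39 over the members and -0.01 over all genes tested.

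**Figure D1:**
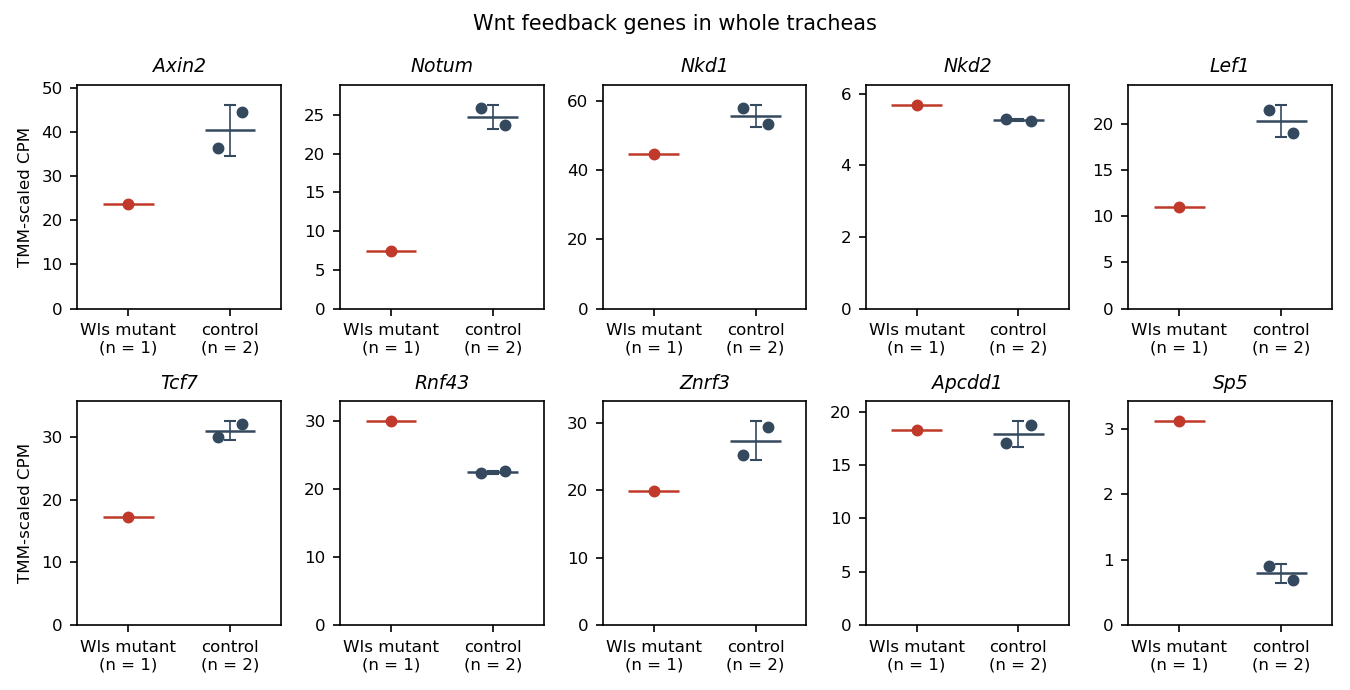
TMM-scaled CPM of each member in the whole tracheas, 1 panel per gene with its own axis from 0, the Wls mutant (n = 1) left of the controls (n = 2). Points are libraries, horizontal lines are group means and error bars are the SD of the controls; the mutant lies below both controls for Axin2, Notum, Nkd1, Lef1, Tcf7 and Znrf3, above both for Nkd2, Rnf43 and Sp5, and between them for Apcdd1.

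Among the secreted and membrane inhibitors, Notum (GRCm38, chromosome 11, 120653788 to 120661175, minus strand) stood at 7.42 CPM in the Wls mutant trachea, with an exact Poisson interval of 6.38 to 8.58 CPM at 95% for counting error only, against 25.8 and 23.7 CPM in controls. The mutant lay far below both controls, which differed from each other by 0.13 in log2 CPM. Its adjusted p by edgeR was 3.8e-10. Apcdd1 stood at 18.3 CPM in the mutant, against 17.0 and 18.8 CPM in controls, and was the member whose mutant value fell inside the control range (log2 fold change 0.03 ± 0.21, edgeR adjusted p = 0.98).

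The paralogous receptor ligases lay on opposite sides of their controls. Rnf43 stood at 29.9 CPM in the Wls mutant, against 22.3 and 22.6 CPM in controls, which gave 0.42 ± 0.19 on the log2 scale and an adjusted p of 0.27 by edgeR. Znrf3 stood at 19.95 CPM in the mutant, against 25.3 and 29.4 CPM in controls (-0.46 ± 0.20, adjusted p = 0.22). Neither passed the test over all genes. Per kilobase of transcript, the ratio of the Rnf43 level to the Znrf3 level was 2.20 in the mutant, against 1.29 and 1.13 in controls, a description without a test.

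Of the intracellular inhibitors, Axin2 (chromosome 11, 108920349 to 108950783, plus strand) stood at 23.8 CPM in the Wls mutant (exact Poisson interval 21.9 to 25.8), against 36.3 and 44.5 CPM in controls. It was below both, with a log2 fold change of -0.76 ± 0.19 and edgeR's adjusted p = 0.0046. Nkd1 stood at 44.7 CPM in the mutant, against 57.8 and 53.2 CPM in controls, and Nkd2 at 5.70 CPM, against 5.30 and 5.25 CPM. The Nkd1 value lay below both controls and the Nkd2 value above both, but neither passed edgeR's test (adjusted p = 0.45 for Nkd1 and 0.94 for Nkd2). The Nkd2 Poisson interval in the mutant, 4.79 to 6.72 CPM, contained both control values.

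Both DNA-binding partners of beta-catenin fell by similar amounts. Lef1 (chromosome 3, 131110471 to 131224356, plus strand) stood at 11.02 CPM in the Wls mutant, against 21.6 and 19.1 CPM in controls (-0.88 ± 0.22, edgeR adjusted p = 0.0043). Tcf7 (chromosome 11, 52252371 to 52283014, minus strand) stood at 17.2 CPM in the mutant, against 29.9 and 32.0 CPM in controls (-0.85 ± 0.20, edgeR adjusted p = 0.0015). The ratio of the Lef1 level to the Tcf7 level per kilobase was 0.456 in the mutant, between the control values of 0.511 and 0.422.

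Sp5 (chromosome 2, 70474923 to 70477729, plus strand) moved the other way. It was a rare transcript, with 76 counts or 3.11 CPM in the Wls mutant (exact Poisson interval 2.45 to 3.898 CPM), against 24 and 22 counts or 0.896 and 0.684 CPM in controls. The interval of the mutant did not reach the upper bounds of the controls, 1.33 and 1.04 CPM. Its log2 fold change was 1.98 ± 0.49 with edgeR's adjusted p = 0.0037, a 3.95-fold higher level. In the same lone library 4 of 7 skeletal muscle markers were called higher and 0 lower, and of 3 thyroid markers tested 1 was higher and 1 lower. The part of tissue composition in the Sp5 value was not tested.

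With 1 mutant library, edgeR had 1 residual degree of freedom and assumed that the mutant varies like the controls. DESeq2's Wald test called 1 member, Notum (adjusted p = 1.1e-06), and gave Tcf7 0.051, Axin2 0.10, Lef1 0.12 and Sp5 0.30. Of all 19068 genes tested by DESeq2, 104 were called higher and 155 lower. The members were also read by size alone, with no test. This rule of size asks for a difference of 1 or more in log2 CPM, a mutant beyond the controls by more than their own gap, and an average of 3 or more in log2 CPM. Notum alone of the 10 met it. Over all genes tested 0.746% met it, 0.493% as lower and 0.253% as higher. Sp5 differed by 1.90 but lay under the minimum level. The mutant lay outside the range of its controls for 9 of 10 members, 6 lower and 3 higher, as it did for 74.5% of all genes tested (37.6% lower and 36.9% higher), so that count says nothing particular about the members.

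Markers of the tissues in the organ moved in the same library. Summed CPM without TMM scaling was 752 for 12 cartilage markers in the Wls mutant, against 2008 and 1765 in controls, with 0 called higher and 9 lower of 11 tested. The 9 smooth muscle markers summed to 2824 in the mutant, against 2059 and 1797 in controls, with 3 called higher and 0 lower. The 13 epithelial markers summed to 1204 in the mutant, against 879 and 744 in controls, with 7 called higher and 2 lower. No marker of these lists was at 0 in the mutant, and of the controls 1 lacked counts of the cartilage gene Matn1. In whole organs, fewer cells of a type and less RNA per cell cannot be told apart, and the part of tissue composition in the values of the 10 genes was not tested.

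**Figure D2:**
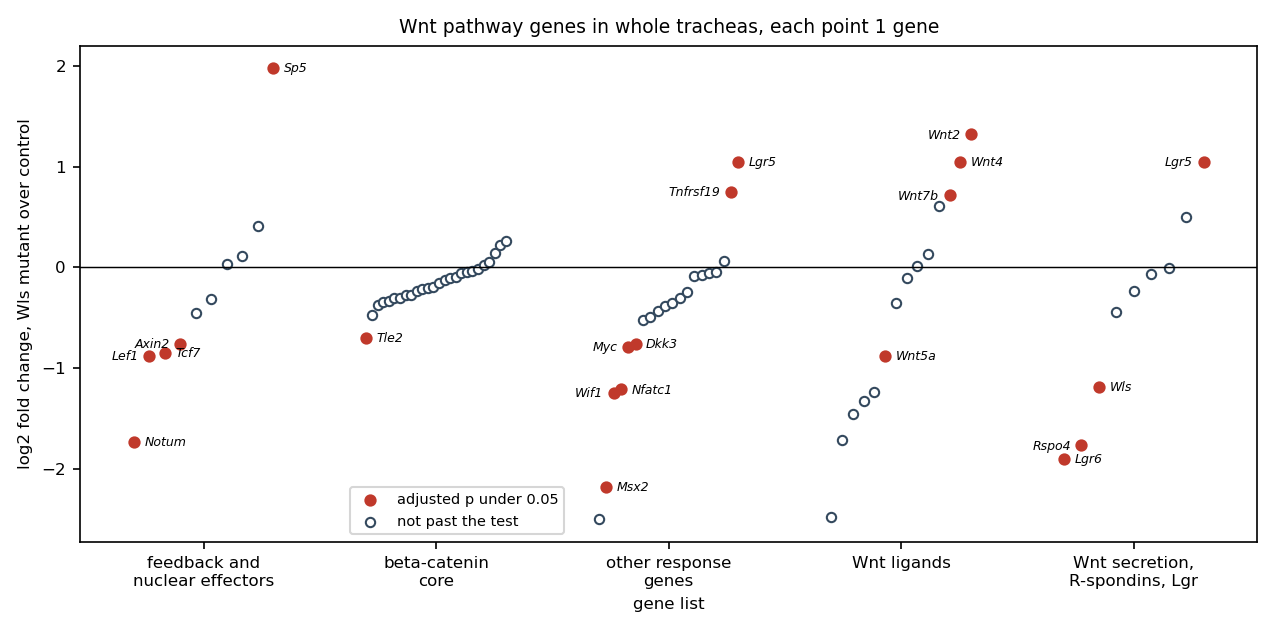
Log2 fold change (Wls mutant trachea over controls) of each tested gene in 5 lists of Wnt genes, 1 point per gene, sorted within a list; filled points passed edgeR's test (adjusted p under 0.05) and are named. The beta-catenin core lies close to 0 with Tle2 alone called, while the feedback genes, other response genes and the ligand and receptor lists hold calls on both sides.

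The plot of all Wnt lists sets the members beside the machinery they act on. Of 26 core components from the destruction complex to the nuclear cofactors, 0 were higher and 1 lower in the Wls mutant trachea, with a median log2 fold change of -0.18. The gene called was Tle2, a corepressor of the Groucho family, at 26.8 CPM in the mutant, against 35.9 and 51.2 CPM in controls (-0.70 ± 0.19, edgeR adjusted p = 0.013). Ctnnb1, the gene of beta-catenin, stood at 1308 CPM in the mutant, against 1430 and 1292 CPM in controls (-0.06 ± 0.25, adjusted p = 0.96). The other TCF genes, Tcf7l1 and Tcf7l2, gave -0.31 ± 0.18 and -0.30 ± 0.18 and did not pass edgeR's test (adjusted p = 0.45 and 0.46). The test of any difference between Lef1 or Tcf7 and these genes was not run.

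Of 20 other Wnt response genes tested, 2 were higher and 5 lower. Msx2, a homeobox gene, stood at 2.13 CPM in the Wls mutant, against 9.90 and 9.45 CPM in controls (-2.18 ± 0.34, edgeR adjusted p = 1.6e-07). Wif1, a secreted Wnt inhibitor, fell by 1.25 and the transcription factor Nfatc1 by 1.21 on the log2 scale, with edgeR's adjusted p = 6.4e-07 and 2.4e-05. Ccnd1, the cyclin D1 gene, stood at 295 CPM in the mutant, against 448 and 382 CPM in controls, and did not pass (-0.49 ± 0.20, adjusted p = 0.19).

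The upstream side moved in both directions. Of 14 Wnt ligand genes tested, 3 were higher and 1 lower, and of 9 genes for Wnt secretion, R-spondins and their Lgr receptors, 1 was higher and 3 lower. Wnt7b, a ligand of the airway epithelium, stood at 217 CPM in the Wls mutant, against 142 and 123 CPM in controls (0.71 ± 0.17, edgeR adjusted p = 0.0028). Of 13 epithelial markers 7 were called higher and 2 lower in the same library, and the part of tissue composition in the Wnt7b value was not tested. Wnt2 and Wnt4 rose by 1.32 ± 0.21 and 1.05 ± 0.18, with edgeR's adjusted p = 7.2e-07 and 2.6e-06. Wnt5a, mainly a ligand of beta-catenin-independent signalling, stood at 71.7 CPM in the mutant, against 129 and 135 CPM in controls (-0.88 ± 0.18, adjusted p = 0.00020). Lgr6 and Rspo4 fell by 1.90 and 1.77 on the log2 scale (edgeR adjusted p = 3.2e-08 and 3.8e-05). Bmp4, the gene deleted in the other experiment, fell by 0.69 (30.9 CPM in the mutant, against 50.7 and 49.1 CPM in controls, edgeR adjusted p = 0.011).

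In the sorted cells, Lef1 was lower and Nkd2 higher in Bmp4 mutants. Lef1 fell 2.47-fold and Nkd2 rose 1.97-fold, and the other 8 members did not pass the test. Calls were common in this comparison: 54.9% of the 21665 genes tested were called, 15.6% as lower and 39.3% as higher, so 1 of 10 members in each direction is no more than the background of calls. The median log2 fold change was -0.08 over the members, against 0.53 over all genes tested and -0.34 over genes with a mean of at least 10 CPM. With TMM factors taken from genes of at least 10 CPM the median of all genes was 0.84, a shift of all fold changes, that of the members was 0.24, and the split of calls was 9497 higher and 1124 lower in place of 8507 and 3381.

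**Figure D3:**
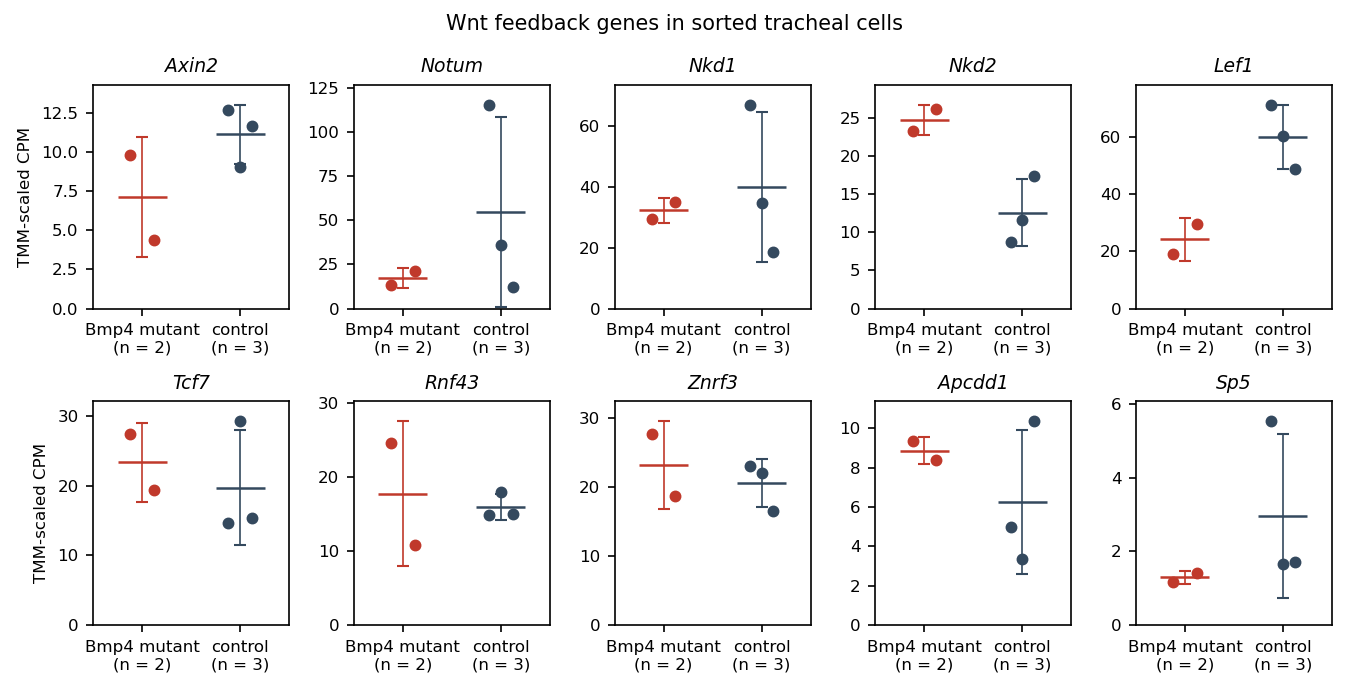
TMM-scaled CPM of each member in the sorted tracheal cells, 1 panel per gene with its own axis from 0, Bmp4 mutants (n = 2) left of controls (n = 3). Points are libraries in the order of their numbers, horizontal lines are means and error bars are SD; the groups do not overlap for Nkd2, Lef1 and Sp5, and control 1 is the highest library for Notum, Nkd1, Lef1 and Sp5.

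A background assumed to be even per kilobase in the mutant libraries bears on each of these values. For a transcript of a member's length it amounts to between 37.2 and 134 counts in a mutant library, where the members had between 16 and 621 counts. It equals 10.6% to 44.4% of the mutant counts for 8 members. For Axin2 it equals 67.2% of the count in mutant 1 and 108% in mutant 2, and for Sp5, with 16 and 25 counts, it exceeds the counts in both. Evenness over genes was assumed and not tested. The estimate for Sp5, 44.7 and 41.4 counts, lies above what was counted, so subtraction can remove too much from a single gene. A second edgeR fit was made on counts from which this background had been subtracted. It tested 14345 genes, 9 of the 10 members among them, and called 15.2% of them, 4.0% as lower and 11.2% as higher. Sp5 was not tested there.

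**Figure D4:**
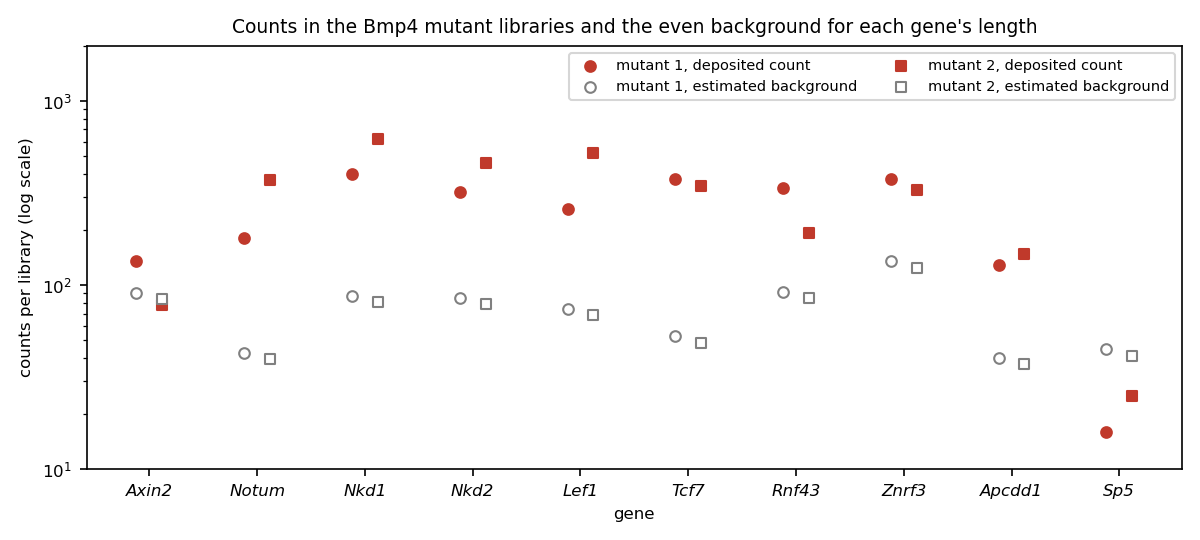
Counts of each member in the Bmp4 mutant libraries (filled circles, mutant 1; filled squares, mutant 2) on a log axis, with the even background estimated for the same transcript length as open symbols. The counts of 8 members lie above the background in both libraries, those of Axin2 lie near it and those of Sp5 lie below it.

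Lef1, the clearest of the members here, stood at 19.0 and 29.6 CPM in Bmp4 mutants, against 71.2, 60.5 and 48.8 CPM in controls. The groups did not overlap. The log2 fold change was -1.31 ± 0.25 (edgeR adjusted p = 0.0048), and -1.20 ± 0.30 after background subtraction (adjusted p = 0.044). With the replicate number as a block it was -1.47 with adjusted p = 0.052, and among genes of at least 3 times the background it was -1.10 with adjusted p = 0.10. After subtraction, leaving out any library other than mutant 2 also ended the call (-0.82 to -1.35, edgeR adjusted p = 0.073 to 0.13). Tcf7 stood at 27.5 and 19.4 CPM in mutants, against 14.6, 29.3 and 15.4 CPM in controls, with overlapping groups (0.25 ± 0.36, edgeR adjusted p = 0.58). Per kilobase, the ratio of the Lef1 level to the Tcf7 level was 0.491 and 1.08 in mutants, against 3.45, 1.47 and 2.26 in controls, with no overlap and no test.

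The Nkd genes gave another pair in which the paralogues differed. Nkd2 (chromosome 13, 73818534 to 73847631, minus strand) stood at 23.4 and 26.2 CPM in Bmp4 mutants, against 8.71, 11.7 and 17.4 CPM in controls, without overlap. Its log2 fold change was 0.98 ± 0.32 (edgeR adjusted p = 0.037), and 1.04 ± 0.36 with adjusted p = 0.10 after background subtraction, so the call was lost. It was also lost with limma-voom (adjusted p = 0.063) and when either mutant, control 1 or control 2 was left out (log2 fold change 0.77 to 1.03, adjusted p = 0.070 to 0.14). Nkd1 stood at 29.4 and 35.2 CPM in mutants, against 67.1, 34.7 and 18.5 CPM in controls, which spanned the mutant values (-0.31 ± 0.48, edgeR adjusted p = 0.60).

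Notum varied most among the control cells. It stood at 13.2 and 21.2 CPM in Bmp4 mutants, against 115, 36.2 and 12.3 CPM in controls, so control 3 was as low as the mutants. The log2 fold change was -1.67 ± 0.83 with edgeR's adjusted p = 0.13. It was -0.49 without control 1. Without control 3 it was -2.14 and passed edgeR's test (adjusted p = 0.017), so the result depends on which control is left out. Cartilage markers summed to 708 and 1828 CPM in mutants 1 and 2, against 5867, 3647 and 2842 CPM in controls 1, 2 and 3, so both groups had the same order of libraries as for Notum. Of 12 cartilage markers 1 was called higher and 7 lower (0 and 4 of 11 after subtraction), and Matn1 was at 0 in controls 1 and 2. The part of cartilage RNA in the Notum values was not tested.

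Axin2 stood at 9.86 and 4.42 CPM in Bmp4 mutants, against 12.7, 9.07 and 11.7 CPM in controls. Mutant 1 lay within the controls and mutant 2 below them, the log2 fold change was -0.65 ± 0.44 (edgeR adjusted p = 0.24), and after subtraction the level was 4.19 CPM in mutant 1 and 0 in mutant 2, against 11.8, 8.47 and 11.04 CPM in controls (adjusted p = 0.30). The estimate moved with the libraries and the fit, to -1.35 without mutant 1, -0.18 without mutant 2, -0.32 with TMM factors from genes of at least 10 CPM and -2.35 ± 1.40 after subtraction, and none of these passed edgeR's test. Sp5 stood at 1.17 and 1.42 CPM in mutants, against 5.53, 1.65 and 1.70 CPM in controls (-1.19 ± 0.78, edgeR adjusted p = 0.23). The mutants lay below all controls, of which control 1 was far above the others, and without control 1 the log2 fold change was -0.37.

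The membrane proteins showed overlapping groups. Rnf43 stood at 24.6 and 10.8 CPM in Bmp4 mutants, on either side of the 14.9, 18.0 and 14.9 CPM in controls (0.15 ± 0.37, edgeR adjusted p = 0.74). Znrf3 stood at 27.6 and 18.6 CPM in mutants, against 23.1, 21.95 and 16.6 CPM in controls (0.17 ± 0.27, adjusted p = 0.61). In Rnf43 the gap between the mutants was wider than that between any controls. Apcdd1 stood at 9.35 and 8.38 CPM in mutants, against 4.98, 3.38 and 10.4 CPM in controls (0.51 ± 0.53, adjusted p = 0.44). Without control 2 its log2 fold change was 0.12 and without control 3 it was 1.09, neither past edgeR's test. In all, 3 of 10 members did not overlap between groups, 2 lower and 1 higher, against 73.9% of all genes tested (25.6% lower and 48.2% higher).

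The Bmp4 mutant libraries were also unlike each other in their markers. Smooth muscle markers summed to 1728 CPM in Bmp4 mutant 1 and 381 CPM in mutant 2, against 215 to 233 CPM in controls, with 7 of 9 called higher and 0 lower. After background subtraction 4 of 8 smooth muscle markers tested remained higher. For all genes tested the share called higher was 39.3% before subtraction and 11.2% after it. Epithelial markers summed to 148 and 91.1 CPM in mutants, against 31.4 to 48.2 CPM in controls, with 6 of 11 tested called higher, and Shh and Krt5 were at 0 in every control. After subtraction 7 epithelial markers were tested, and 0 were called higher and 1 lower. General mesenchyme markers, at 10660 and 12870 CPM in mutants and 5827 to 8524 CPM in controls, exceeded the cartilage markers in all 5 libraries. Cartilage genes were thus expressed in the cells labelled chondroblasts, but below general mesenchyme genes in sum. The mesenchyme list holds the collagen genes Col1a1 and Col3a1 and the sums are not scaled to transcript length, so their order does not identify the cells. The part of all these markers in the values of the 10 genes was not tested.

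Of the 26 core components, 0 were higher and 15 lower in the Bmp4 mutant cells, with a median log2 fold change of -0.66. Over all genes tested 15.6% were lower and the median was 0.53, but the median was -0.34 over genes with a mean of at least 10 CPM. The share lower among those genes was not counted, so 15.6% is not a background matched to the level of the core genes. After background subtraction 0 were higher and 5 lower of 25 tested, against 4.0% lower over all genes tested there. Among genes of at least 3 times the background 0 of 21 were lower, and 0 were lower with the replicate block. With TMM factors from genes of at least 10 CPM 8 were lower, and leaving out mutant 1 left 7 lower and leaving out control 1 or control 2 left 9. Ctnnb1 stood at 342 and 559 CPM in mutants, against 902, 929 and 881 CPM in controls (-1.01 ± 0.24, edgeR adjusted p = 0.011), and after subtraction it did not pass (-0.61, adjusted p = 0.11). Tcf7l1, mainly a repressor among the TCF proteins, stood at 23.1 and 28.7 CPM in mutants, against 69.5, 58.9 and 50.6 CPM in controls (-1.20 ± 0.20, edgeR adjusted p = 0.0033, and 0.026 after subtraction). Tcf7l2 gave -0.79 ± 0.29 and did not pass (edgeR adjusted p = 0.051). The corepressor gene Ctbp1 fell by 1.17 on the log2 scale (edgeR adjusted p = 0.0041, and 0.043 after subtraction).

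Of 25 other response genes tested, 6 were higher and 7 lower, against 39.3% higher and 15.6% lower over all genes tested. After subtraction 2 were higher and 2 lower of 18, against 11.2% and 4.0% over all genes tested there. Msx2 fell by 3.49 and Ccnd1 by 1.55 on the log2 scale (edgeR adjusted p = 0.0033 and 0.016), while Cd44, a cell surface receptor for hyaluronan, rose by 2.11 (adjusted p = 0.0060). After subtraction Ccnd1 did not pass (adjusted p = 0.10). Of 19 ligand genes 11 were higher and 1 lower, but all 11 stood at no more than 1.496 CPM in any control, 4 of them at 0 in every control, and none was tested after subtraction. Wnt4 and Wnt7b were among them. Wnt5a stood at 78.3 and 176 CPM in Bmp4 mutants, against 559, 318 and 198 CPM in controls (-1.497 ± 0.50, edgeR adjusted p = 0.038, and 0.18 after subtraction). Wls was lower as well (-1.10 ± 0.26, adjusted p = 0.010, and 0.096 after subtraction).

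**Figure D5:**
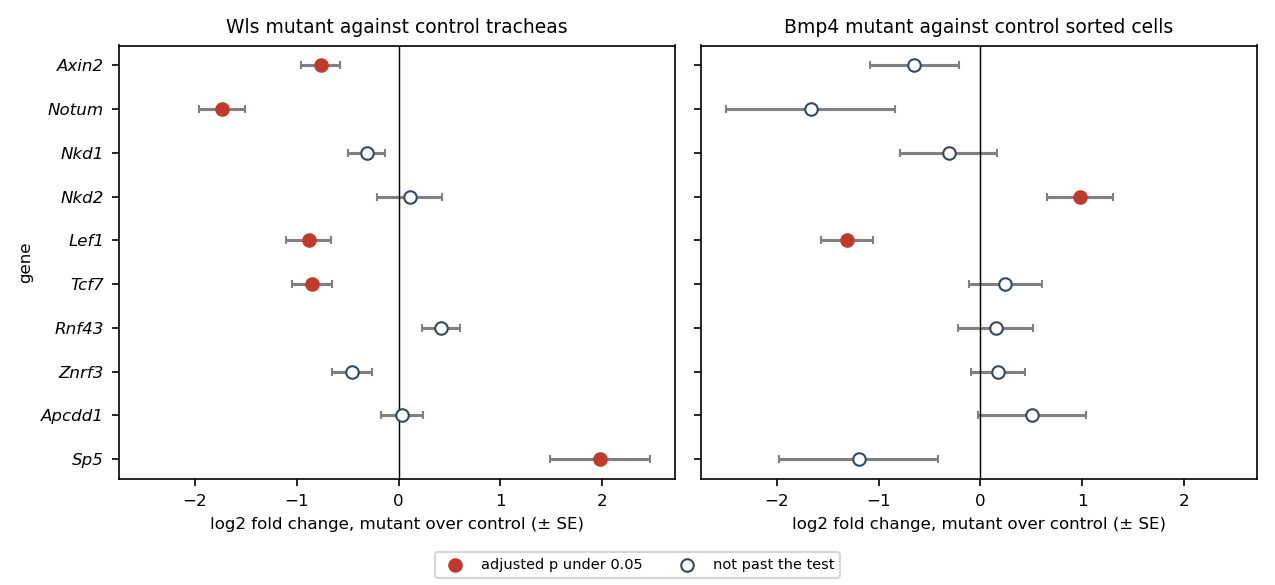
Log2 fold change of each member with its SE, in Wls mutant tracheas over controls (left) and in Bmp4 mutant sorted cells over controls (right), on 1 common axis; filled points passed edgeR's test with adjusted p under 0.05. Lef1 is called lower in both panels, Axin2, Notum, Tcf7 and Sp5 are called in the left panel alone and Nkd2 in the right panel alone.

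The plot of fold changes sets both experiments side by side. Lef1 passed the test in both, lower each time (-0.88 ± 0.22 in Wls mutant tracheas and -1.31 ± 0.25 in Bmp4 mutant cells). Notum had point estimates of similar size, -1.74 ± 0.23 and -1.67 ± 0.83, with an SE several times larger in the sorted cells. Tcf7 was lower in the Wls mutant and did not pass in the Bmp4 mutants (0.25 ± 0.36), and Sp5 had estimates of opposite sign. The experiments differ in kit, in kind of sample and in background, and no difference between them was tested.

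Levels per kilobase of transcript allow the genes to be ranked within a group. In the Wls mutant trachea the order ran from Nkd1 at 10.9 CPM per kilobase over Apcdd1 at 9.68, Tcf7 at 6.95, Rnf43 at 6.94, Axin2 at 5.59, Notum at 3.69, Lef1 at 3.17 and Znrf3 at 3.16 to Sp5 and Nkd2 at 1.48 and 1.42. In its controls it ran from Nkd1 at a mean of 13.6 over Tcf7 at 12.5, Notum at 12.3, Axin2 at 9.48, Apcdd1 at 9.47, Lef1 at 5.83, Rnf43 at 5.20 and Znrf3 at 4.34 to Nkd2 at 1.32 and Sp5 at 0.376 CPM per kilobase. The ranges of neighbours in the controls overlapped for Tcf7 and Notum and for Axin2 and Apcdd1. Notum thus stood at rank 6 of 10 in the mutant and at rank 3 in controls. In Bmp4 mutant cells Tcf7 led with 9.49 ± 2.30 CPM per kilobase (SD, n = 2), and in their controls Notum led with 27.1 ± 26.8 and Lef1 followed with 17.3 ± 3.22 (SD, n = 3). In both groups of sorted cells the range of the leading gene overlapped that of the next, and Sp5 was last.

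The genes most like Axin2 and Notum were found by the distance of their profiles over all 8 libraries, each profile being log2 CPM minus the mean of the controls of the same table, among 10155 genes averaging 3 or more in log2 CPM in each table. Nearest to Axin2 were Hddc3, Adam11, Ppfibp2, Ebf4 and Spen, at distances of 0.392 to 0.509 log2 units. The background was not subtracted from these profiles, and it equals 67.2% and 108% of the Axin2 counts in Bmp4 mutants 1 and 2. Nearest to Notum were Matn4, Hoxa5, Col11a2, Tbx4 and Scube1, at 0.831 to 1.38. Matn4, a cartilage matrix protein, stood at -1.81 from the control mean in the Wls mutant trachea and at -1.999 and -0.81 in Bmp4 mutants 1 and 2. Like Notum it was highest in control 1 and lowest in control 3 of the sorted controls. Matn4 was picked by this distance over the same libraries, so the likeness is set by the choice and is no separate result. Libraries of a table share a kit, the Bmp4 mutants are shallower than their controls, and the distances are a description.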

How the data were processed

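The authors deposited whole-number counts per gene, 1 table for tracheas and 1 for sorted cells, used as deposited. Per the labels' protocols, Trizol was used for the RNA, tracheas were amplified with Ovation RNA-Seq v2 and sorted cells with SMART-Seq v4, before Nextera XT library preparation. Trim Galore (sorted cells), Bowtie2, Cufflinks and DESeq appear, without versions, in the submitters' processing notes, with the build mm10. The driver of Cre in the Bmp4 mutants is not reported here. Which program counted the reads, and with which strand setting, is not given in the labels. Exons of Axin2, Notum and Lef1 overlap annotated antisense genes that the tables do not list, so reads of the pairs cannot be told apart.

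Each table was fitted alone in R 4.3.3 with edgeR 4.0.16 (default expression filter, TMM scaling, quasi-likelihood F test, Benjamini-Hochberg adjustment over all genes tested, threshold 0.05). Residual degrees of freedom were 3 for sorted cells and 1 for tracheas. The SE of each fold change was derived from its F statistic. Alternatives used DESeq2 1.42.0 and limma 3.58.1. Fits were tested on simulated data. The rule of size used a prior count of 2. The even background was the rate of counts per kilobase over genes without counts in any control, with transcript lengths from GRCm38 RefSeq-linked transcripts. By this definition it is 0 in the controls, so counts were removed from the Bmp4 mutant libraries alone. Reads carry no molecular identifiers, so Poisson intervals cover counting error only. No library was merged with another, since replicates differed by 23.4 to 184 times counting noise in a chi-square test.

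The 10 members and all lists were chosen with earlier results of these data known. Besides the members, up to 3 genes per list and comparison were named, those with the largest fold change among genes past the test with a mean of at least 5 CPM, together with Wnt4, Wnt5a, Wnt7b, Wls, Bmp4, Ctnnb1, Ccnd1, Tcf7l1, Tcf7l2 and the 5 genes nearest to Axin2 and to Notum. Endothelial, leukocyte, neural, skeletal muscle, thyroid and erythroid markers were summed as well and appear with the other observations.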

Additional observations from a re-analysis of the deposited data

How the results depend on the processing

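In the Wls mutant trachea, where 5 members were called, scaling by DESeq2 size factors, TMM factors from genes of at least 10 CPM, limma-voom and no expression filter kept the number of calls within 1.5 times, while DESeq2's Wald test called 1. At a size threshold of 0.58, 4 members in place of 1 and 13 pathway genes in place of 7 met the rule of size. The share of all genes that met it at 0.58 was not counted, so these numbers have no background beside them. Without control 1 the Apcdd1 difference was -0.025, with no test, and without control 2 it was 0.10. No paired analysis was possible because the tracheas share only 1 replicate number.

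In the sorted cells, where 2 members and 42 pathway genes were called, limma-voom called 1 member, leaving out globin genes 1 and background subtraction 1 member and 9 pathway genes. Keeping genes of at least 3 times the background called 0 and 0, and leaving out 1 library called 1 to 3 members, 3 without control 3, and 14 to 37 pathway genes, the lowest without mutant 1. With TMM factors from genes of at least 10 CPM the pathway calls split into 21 higher and 13 lower, in place of 18 higher and 24 lower. With subtraction and 1 library left out, 0 to 1 members and 0 to 10 pathway genes were called. The fits without globin genes, at 3 times the background, and with subtraction and omission together were chosen after seeing the data. Mutant and control numbers were checked for pairing. Deviations of libraries with number 1 correlated at -0.30 and with number 2 at -0.22 over 11127 genes. With 2 mutants the deviations mirror each other, so these values cannot decide whether the numbers pair libraries. The replicate block called 0 members and 0 pathway genes, and 4 of all genes, with 9833 genes at an unadjusted p under 0.05.

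The sign of estimates that never passed the test turned for Nkd1 (0.0062 with TMM factors from genes of at least 10 CPM, and -0.65 to 0.28 with 1 library left out), Tcf7 (-0.037 to 0.56 with 1 library left out), Rnf43 (-0.013 with limma-voom, -0.00051 with the replicate block, and -0.57 to 0.63 with 1 library left out) and Znrf3 (-0.046 after subtraction and -0.15 to 0.43 with 1 library left out). The cause was not tested.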

Other observations

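Among receptors for R-spondins, which protect Frizzled receptors from Rnf43 and Znrf3, Lgr5 was higher in both experiments. It stood at 15.7 CPM in the Wls mutant trachea, against 6.69 and 8.39 CPM in controls (log2 fold change 1.05 ± 0.24, edgeR adjusted p = 0.0013). It stood at 19.3 and 18.9 CPM in Bmp4 mutant cells, against 4.65, 4.04 and 4.28 CPM in controls (2.14 ± 0.30, edgeR adjusted p = 0.0033). The even background equals 38.0% and 27.8% of its mutant counts, and after subtraction it still passed (1.99, adjusted p = 0.019). Lgr6 had 3.77 CPM in the Wls mutant trachea, against 13.3 and 14.9 CPM in controls, and 13.7 and 11.6 CPM in Bmp4 mutant cells, against 1.95, 2.18 and 2.60 CPM in controls. There the background equals 76.0% and 64.4% of the mutant counts, and Lgr6 was not tested after subtraction. Lgr5 in the tracheas was singled out after its values were seen.

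Further response genes called in the Wls mutant trachea, also singled out after their values were seen, were Tnfrsf19 (0.75 ± 0.18, edgeR adjusted p = 0.0016), Myc (-0.79 ± 0.18, adjusted p = 0.0015) and Dkk3 (-0.76 ± 0.20, adjusted p = 0.0095).

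Summed CPM of other marker lists in Bmp4 mutants was 262 and 206 for endothelium, against 26.6 to 124 in controls, 272 and 272 for leukocytes, against 147 to 190, and 615 and 756 for neural genes, against 302 to 487. It was 172 and 35.1 for skeletal muscle, against 80.5 to 256, 51.9 and 32.5 for thyroid, against 4.58 to 16.0, and 125900 and 1284 for erythroid genes, against 30.2 to 9678. In the Wls mutant trachea it was 320 for endothelium, against 407 and 471 in controls, 91.9 for leukocytes, against 82.1 and 70.2, and 251 for neural genes, against 229 and 229. It was 462 for skeletal muscle, against 484 and 364, and 10 for thyroid, against 4.81 and 4.97. These sums hide calls by edgeR: 4 of 7 skeletal muscle markers were higher and 0 lower, among them the embryonic myosin gene Myh3 at 92.4 CPM in the Wls mutant, against 15.7 and 15.1 CPM in controls (adjusted p = 1.0e-29). Of 3 thyroid markers tested 1 was higher and 1 lower, the higher one being Pax8 with 103 counts in the mutant, against 9 and 2 in controls (adjusted p = 2.1e-10). Both genes were singled out after their values were seen. Of the other lists, 2 of 8 neural markers were higher and 1 of 8 endothelial markers lower, and no leukocyte or erythroid marker was called. The sum was 11230 for erythroid genes, against 13050 and 7797. In the Bmp4 mutants the calls, higher and lower, were 2 and 0 of 8 for endothelium, 2 and 0 of 7 for leukocytes, 2 and 1 of 8 for neural genes, 0 and 0 of 7 for skeletal muscle, 2 and 0 of 3 for thyroid and 2 and 0 of 6 for erythroid genes. After subtraction 1, 1, 2, 0, 0 and 1 were higher in the same order and 0 lower in any. For all genes tested the shares, higher and lower, were 39.3% and 15.6% before subtraction and 11.2% and 4.0% after it.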
